A study of Sus scrofa with 6 samples.

Results

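The genes described here are 10 that build and hold together the microvilli of the intestinal brush border: VIL1, EZR, ESPN, MYO1A, MYO7B, CDHR2, CDHR5, USH1C, PLS1 and EPS8. They were taken by symbol from a deposited table of 24358 pig genes, and each of the 10 symbols matched 1 row. The table holds RNA sequencing of jejunum, the stretch of small intestine between duodenum and ileum, from weaned Large White by Landrace piglets described as healthy. Of the libraries, 3 came from transported piglets (transports 1 to 3) and 3 from piglets kept without transport (controls 1 to 3). No source used here gives the piglets' age, sex or litter, how long they travelled or when they were sampled. The labels also do not say that each library is a separate animal, so the p-values rest on a spread between samples that may be partly technical.

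Microvilli are finger-like protrusions on the apical face of absorptive cells, each held up by a bundle of parallel actin filaments. Bundling proteins cross-link the core, linker proteins and a small myosin tie it to the membrane, and a complex of protocadherins with their scaffold and motor joins neighbouring microvilli at the tips. These roles are known mainly from mice and from human and chicken cells. The brush border so formed carries the hydrolases and transporters with which the jejunum digests and absorbs.

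Totals ranged from 48208451 to 53739246 counts per library, and the lowest count of any member in any library was 937 (USH1C in transport 1), so counting error was small beside the differences between libraries. Some libraries stood apart. Transport 3 had a median correlation of log2 CPM (counts scaled to library size) with the other libraries of 0.814, against 0.904 to 0.936 for the rest. It carried 6836 FPKM (a level scaled to gene length and to library size) of FABP6, the ileal bile acid binding protein, where the other 5 libraries had 2.83 to 13.8. Of the other ileal markers, SLC10A2 was at 15.5 FPKM against at most 1.25 elsewhere, and CUBN at 19.0 against at most 0.0321. SLC51A, at 31.4 FPKM, was close to control 2 at 29.5, and SLC51B, at 52.3 FPKM, was lowest in transport 3. GATA4, a transcription factor, was at 0.906 FPKM against 44.4 to 59.5 elsewhere. Whether transport 3 came from another stretch of intestine than its label says was not tested. The summed level of 18 leukocyte markers was 126, 162 and 991 FPKM in transports 1 to 3, against 90.7, 100.1 and 109.5 FPKM in controls 1 to 3, so it was higher in every transport library than in any control and by far the highest in transport 3. Of the 15 of them tested, 14 had a log2 fold change above 0, against 56.9% of all tested genes. In edgeR 0 passed the adjusted threshold and 10 had an unadjusted p under 0.05, against 5.13% of all tested genes. Some of the 10 rested on transport 3, such as CD79B at 2.97, 1.63 and 186 FPKM in transports 1 to 3. Others did not, such as CD3D at 4.71, 5.91 and 5.27 FPKM, against 1.47, 0.936 and 1.39 FPKM in controls. In transport 3 the sum of 13 epithelial markers was 724 FPKM against 1734 to 2548. Of those tested, all were lowest there except CDH17, at 53.4 FPKM against 27.8 to 89.7, and F11R, at 25.1 against 21.6 to 48.6. Control 2 had 74.5 FPKM over 10 smooth muscle markers, where the others had 1067 to 2921. None of the smooth muscle markers was at 0 in it. In whole tissue, fewer cells of a type and less RNA per cell cannot be told apart, and the part of tissue make-up in the results below was not tested beyond the values given.

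A gene was tested where its FPKM reached 1 in 3 or more libraries, which all 10 members did, as did 12012 genes in all. Their levels ran from among the strongest genes of the tissue to the middle of the tested genes. By mean FPKM over the 6 libraries CDHR5 took place 165 and VIL1 place 170 of the tested genes, while USH1C took place 3336, ESPN 3864 and EPS8, the weakest, 5884. The order of levels was stable in part. PLS1 was the seventh of the 10 in all 6 libraries, below CDHR2 and above USH1C throughout. CDHR5, VIL1 and MYO1A shared the top places and did not differ beyond their spread: CDHR5 exceeded VIL1 in 3 of 6 libraries and VIL1 exceeded MYO1A in 4. EZR was below MYO1A in 5 of 6, and MYO7B and CDHR2 changed places, with MYO7B ahead in 4 of 6. At the low end USH1C exceeded ESPN, and ESPN exceeded EPS8, in 5 of 6 each.

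**Figure D1:**
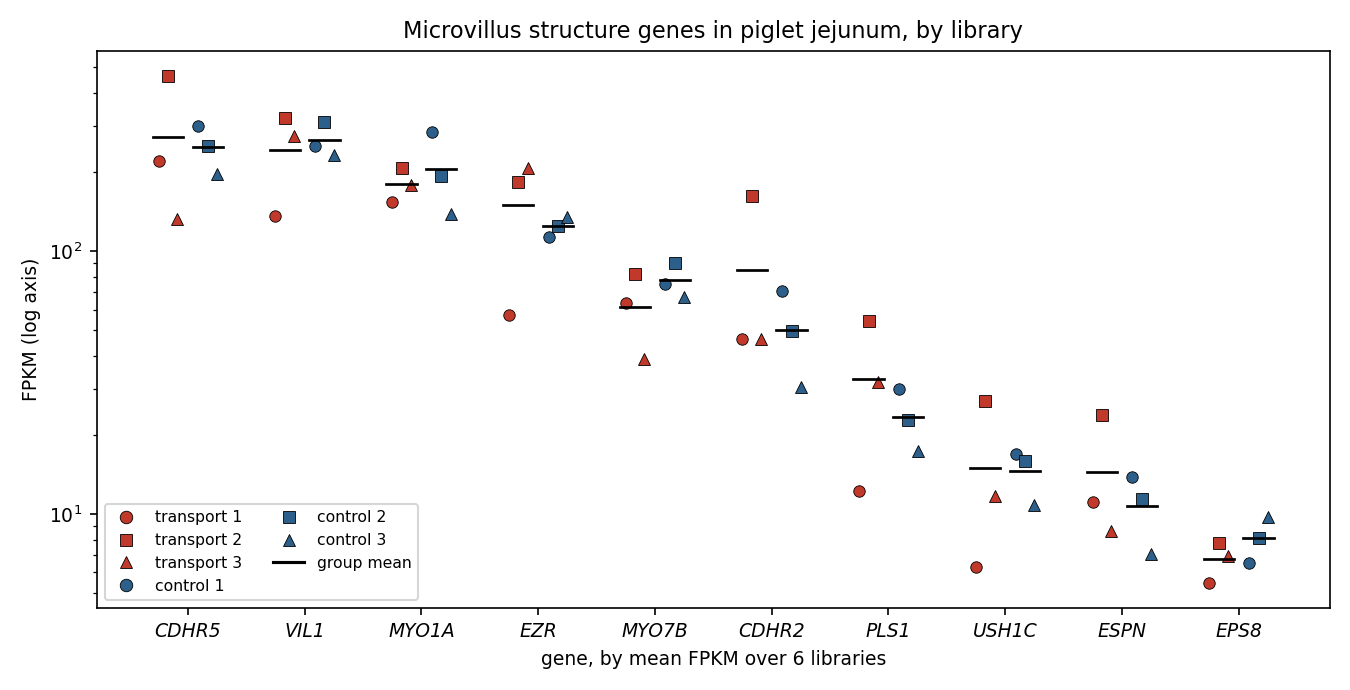
FPKM (log axis) of the 10 microvillus genes in each library, ordered by mean level, with transport libraries in red on the left and control libraries in blue on the right of each gene; symbols mark the replicate number and black bars the group means. The groups overlap for all 10 genes, and transport 2 is the highest library for 6 of them.

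No member passed the test for a difference between transported and control piglets. In edgeR's quasi-likelihood test 0 of the 10 passed an adjusted p of 0.05, against 0.0167% of all tested genes, and 0 of 10 passed an unadjusted p of 0.05, against 5.13%. DESeq2, which called 0.42% of the genes it tested, and limma on log2(FPKM + 1), which called 0.00833%, also called 0 of the 10. For each of the 10 the FPKM of the groups overlapped, whereas 11.1% of tested genes were without overlap (6.93% higher and 4.19% lower after transport). Log2 fold changes, transport against control, were above 0 for 6 members (56.9% of tested genes) with a median of 0.06, beside 0.07 over all tested genes. The 95% intervals were wide, from -0.98 to 0.34 for EPS8, the narrowest, so these data do not show that levels were equal. Without the libraries that stood apart, transport 3 and control 2, 7 of 10 were above 0 and the median was 0.18.

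The first group of members forms the actin core. VIL1 encodes villin, a calcium-regulated protein that bundles actin and can also sever it (ENSSSCG00000016196, plus strand of chromosome 15 from 120469629 to 120491665, as the deposited table gives positions; no source used here states the genome build). It had 136, 320 and 274 FPKM in transports 1 to 3, against 252, 309 and 232 FPKM in controls 1 to 3. Transport 1 lay below the other 5 libraries and transport 2 slightly above them. The means were 243 ± 95.8 after transport and 264 ± 39.9 FPKM in controls (SD, n = 3 each), and transport against control gave a log2 fold change of -0.18 ± 0.40 (standard error) (edgeR, adjusted p = 0.964). Leaving out transport 1 turned it to 0.10.

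ESPN encodes espin, a bundler that is insensitive to calcium, and lies on the plus strand of chromosome 6 from 67284278 to 67315783. Its levels were 11.1, 23.8 and 8.65 FPKM after transport, against 13.8, 11.5 and 7.06 FPKM in controls. Transport 2 was the highest library and control 3 the lowest. The log2 fold change of 0.39 had a 95% interval of -0.82 to 1.60, and became -0.25 without transport 2.

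PLS1 encodes plastin 1, also called fimbrin, the third bundler of the core (plus strand of chromosome 13, 83290040 to 83437047). It was at 12.2, 54.4 and 31.8 FPKM after transport, against 29.99, 22.9 and 17.4 FPKM in controls. Both the lowest and the highest library belonged to the transport group, which spanned 4.46-fold, the widest span of any member in either group. Its log2 fold change was 0.44 with an interval of -0.91 to 1.78, and -0.26 without transport 2.

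EPS8 encodes a protein of the microvillus tip that caps and bundles actin filaments (plus strand of chromosome 5, 56817482 to 57005114). Levels were even, at 5.49, 7.74 and 6.94 FPKM after transport, against 6.50, 8.10 and 9.71 FPKM in controls. Transport 1 was the lowest and control 3 the highest. Its log2 fold change of -0.32 ± 0.28 (standard error) was the only one of the 10 that kept its sign under all 15 alternative settings, from -0.51 to -0.20, and it did not pass the test in any of them (edgeR, adjusted p = 0.904 with all 6 libraries).

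The second group ties the core to the membrane. EZR encodes ezrin, which binds actin at one end and membrane proteins at the other (plus strand of chromosome 1, 8403355 to 8452747). Its levels were 57.2, 184 and 208 FPKM in transports 1 to 3, against 113, 124 and 135 FPKM in controls. The controls lay within 1.19-fold of each other, while transport 1 was below all of them and transports 2 and 3 above all of them. The log2 fold change was 0.20 with an interval of -0.92 to 1.31, and turned to -0.07 without transport 2 and -0.04 without transport 3. EZR was the only member at its highest in transport 3, the library with the largest sum of leukocyte markers, and lymphocytes are known to express ezrin too. The share of its reads that came from such cells was not tested.

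MYO1A encodes brush border myosin I, which forms the lateral bridges between core and membrane (minus strand of chromosome 5, 22337906 to 22363502). It had 154, 207 and 178 FPKM after transport, against 284, 193 and 139 FPKM in controls. Here the transport libraries were the closer set, within 1.34-fold, and the controls spanned 2.04-fold. Its log2 fold change was -0.27 (interval -1.18 to 0.64), and 0.06 without control 1, the library where it was highest.

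The third group is the adhesion complex at the tips. CDHR2 and CDHR5 encode protocadherins that link adjacent microvilli, USH1C encodes harmonin, their scaffold, and MYO7B encodes the myosin motor of the complex. The first 3 of these lie apart on chromosome 2 and MYO7B lies on chromosome 15, as VIL1 does. CDHR2 (minus strand, 81276787 to 81361657) was at 46.4, 163 and 46.5 FPKM after transport, against 70.5, 49.7 and 30.4 FPKM in controls. Transport 2 stood far above the rest, which overlapped. Its log2 fold change of 0.73 was the largest of the 10 in size, with an interval of -0.81 to 2.27 (edgeR, adjusted p = 0.905), and it was -0.25 without transport 2.

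CDHR5 (minus strand, 375726 to 382669) had 221, 464 and 132 FPKM after transport, against 298, 251 and 196 FPKM in controls. The transport group held both the highest and the lowest library, transports 2 and 3. The log2 fold change was 0.11 (interval -1.18 to 1.40), -0.11 with the replicate number as a block and -0.61 without transport 2.

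USH1C (plus strand, 41605032 to 41645713) had 6.30, 26.9 and 11.7 FPKM after transport, against 17.0, 15.9 and 10.8 FPKM in controls. The controls and transport 3 lay between transports 1 and 2, which differed 4.27-fold. The log2 fold change was 0.00 with an interval of -1.34 to 1.35, and -0.24 with the replicate block.

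MYO7B (minus strand of chromosome 15, 59709944 to 59802964) had 63.3, 82.1 and 38.9 FPKM after transport, against 75.0, 90.4 and 66.9 FPKM in controls. Transport 3 was the lowest library. Its log2 fold change was -0.38 (interval -1.32 to 0.57), and 0.06 without both transport 3 and control 2.

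**Figure D2:**
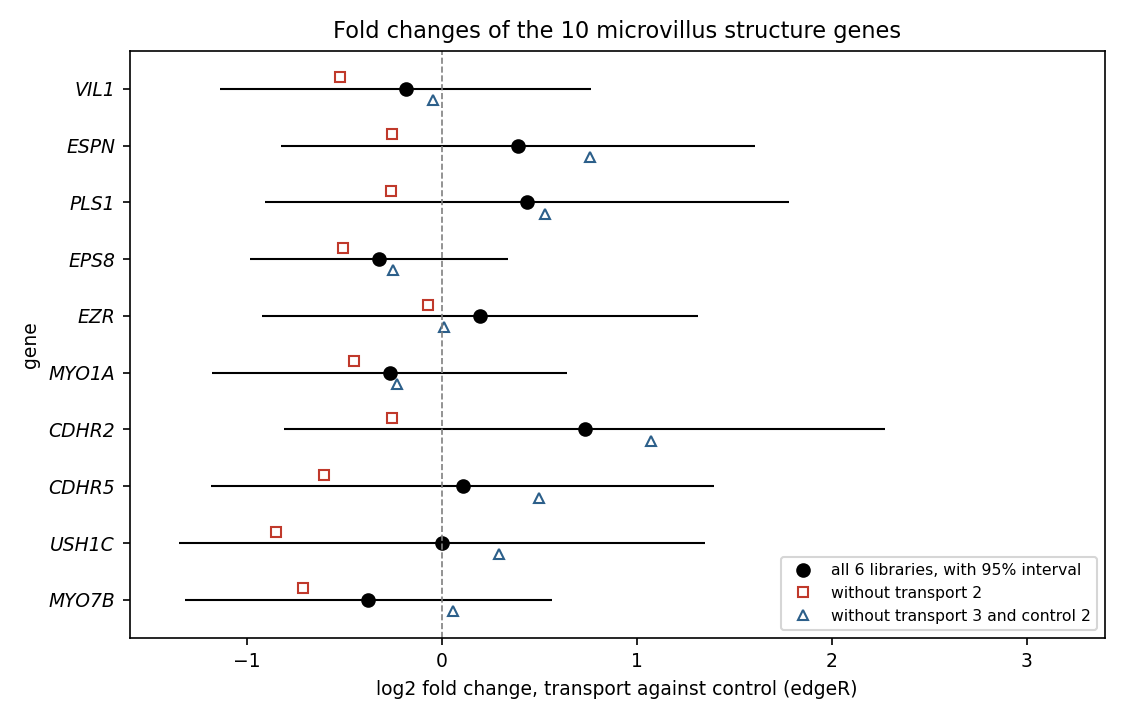
Log2 fold change, transport against control, of each member from edgeR's fit of all genes, with 95% intervals (black lines), without transport 2 (open squares) and without transport 3 and control 2 (open triangles). Every interval spans 0, and without transport 2 all 10 values lie below 0, between -0.85 and -0.07.

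Within the transport group the members lay far apart. Transport 2 was the highest of the 6 libraries for VIL1, ESPN, CDHR2, CDHR5, USH1C and PLS1, 6 of 10, where it was the highest for 15.4% of tested genes. Transport 1 was the lowest for VIL1, EZR, USH1C, PLS1 and EPS8, 5 of 10, against 11.2% of tested genes. All 10 members had more CPM in transport 2 than in transport 1, against 41.1% of tested genes. Their median log2 difference was 1.14, beside -0.14 over all tested genes. This was not particular to the members. The sum of 17 brush border hydrolases, described below, was 1105 FPKM in transport 1 and 3219 FPKM in transport 2. Of the hydrolases tested, only MGAM2 was lower in transport 2, at 3.89 against 7.22 FPKM. The 10 together took 0.302%, 0.647% and 0.364% of all counts in transports 1 to 3, against 0.480%, 0.429% and 0.330% in controls 1 to 3. Without transport 2, 0 of 10 log2 fold changes were above 0 and their median was -0.48; without transport 1, 7 of 10 were above 0 and the median was 0.31. In neither case did a member pass the adjusted threshold of edgeR.

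The spread inside the transport group was wider than inside the control group for 8 of the 10, all except MYO1A and EPS8. This was also so for 73.7% of tested genes, so the count of members is near the background. The size was larger: the median SD of log2 CPM over members was 0.82 after transport and 0.33 in controls, beside 0.53 and 0.27 over all tested genes. EZR differed most between the groups, with an SD of 1.02 after transport and 0.13 in controls.

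**Figure D3:**
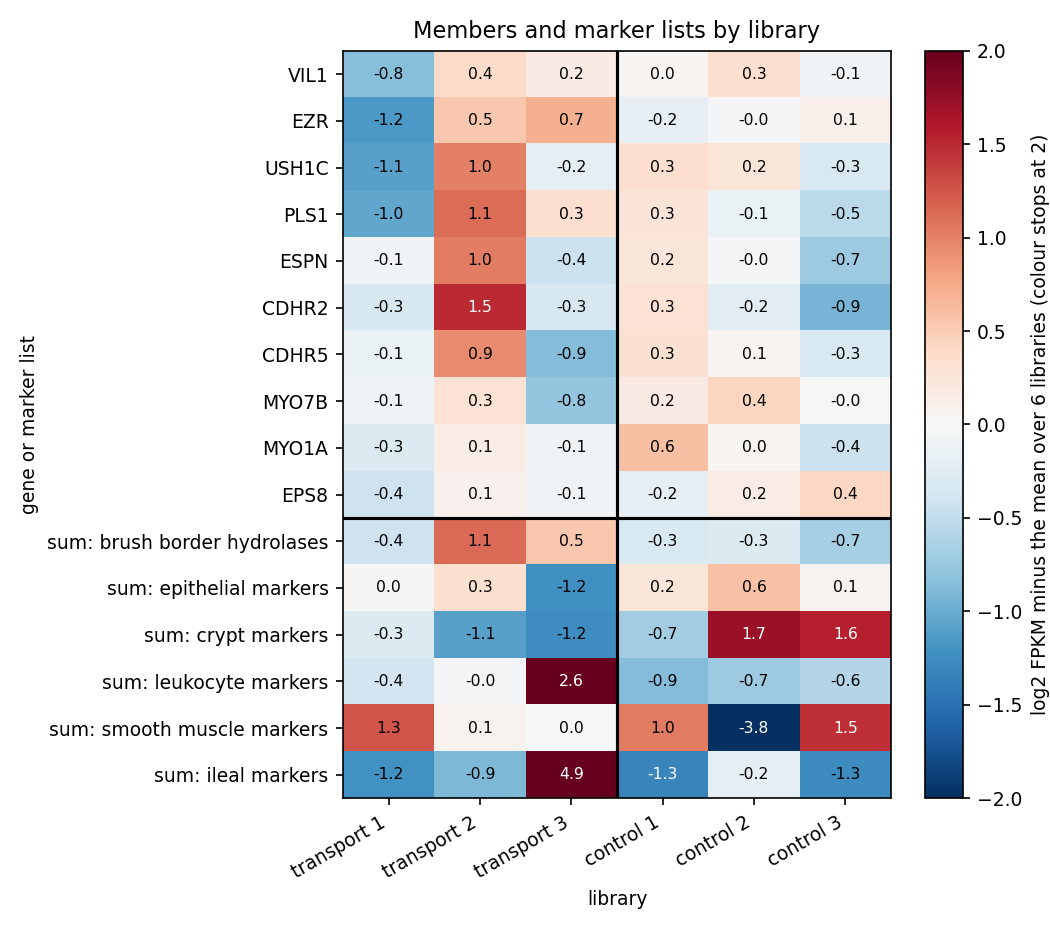
Log2 FPKM of each member, and of summed marker lists below the line, minus the mean over the 6 libraries, with transport libraries on the left and controls on the right (colour stops at 2). Transport 2 is above the mean for all 10 members and transport 1 below it for all 10. The ileal marker sum is highest in transport 3, where most of it is FABP6. Leukocyte marker sums are above the controls in all 3 transport libraries, and the smooth muscle marker sum is lowest in control 2.

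Transports 1 and 2, which lay at opposite ends for most members, had sums of the 13 epithelial markers of 1734 and 2116 FPKM. The controls ranged from 1773 to 2548 FPKM. The sum hid markers that moved both ways between transports 1 and 2. EPCAM was at 39.5 and 136 FPKM, CDH17 at 27.8 and 89.7 and F11R at 22.1 and 48.6, with CLDN7, LGALS4, ELF3 and GRHL2 also higher in transport 2. KRT8, at 680 and 599 FPKM, CDH1, at 63.7 and 48.4, and KRT18, CLDN3 and ESRP1 were lower in transport 2. In transports 1 and 2 the sums of 10 smooth muscle markers were 2552 and 1117 FPKM. Those of 9 crypt markers were 738 and 419 FPKM, against 550 to 2932 FPKM in controls. Most of each of these crypt sums was OLFM4, at 637 and 366 FPKM in transports 1 and 2, and 417, 2807 and 2448 FPKM in controls 1 to 3. The other crypt markers were also lower in transport 2 than in transport 1. Control 2, the library with the lowest sum of smooth muscle markers, was highest for MYO7B alone. The part of these differences in tissue make-up in the members' levels was not tested.

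Across the 6 libraries the members moved together more than genes in general did. The median Pearson r of log2 CPM over the 45 pairs of members was 0.49, beside 0.05 over all pairs of tested genes, with all pairs sharing the same libraries and depth. The pairs most alike were ESPN with CDHR2 (r = 0.9745), USH1C with PLS1 (0.906) and ESPN with CDHR5 (0.893). VIL1 went with USH1C (0.875), EZR (0.857) and PLS1 (0.811). The pair least alike was MYO1A with EPS8 (-0.298), and 5 of the 45 pairs were below 0. Leaving out transport 2 lowered the median to 0.33 and the r of ESPN with CDHR2 to 0.926, while leaving out transport 3 gave 0.60 and 0.988. Leaving out transport 1 lowered the r of VIL1 with EZR to 0.337. The lowest r of any pair fell to -0.833 without transport 1 and to -0.648 without transport 2.

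Of 4303 genes with a symbol and a mean FPKM of at least 10, the 5 whose pattern over the 6 libraries was most like that of VIL1 were TMEM189 (r = 0.978), CLIC5 (0.943), KXD1 (0.937), RAB10 (0.936) and TMEM59 (0.930). CLIC5, which encodes a chloride intracellular channel protein that associates with ezrin in microvilli, had 4.73, 16.2 and 14.3 FPKM after transport, against 11.8, 11.2 and 9.10 FPKM in controls, with transport 1 again the lowest. For KXD1, a subunit of the complex that positions lysosomes, the likeness rested on small differences, at 186, 220 and 220.4 FPKM after transport and 214 to 223 FPKM in controls.

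Ratios within a library do not depend on its depth or scaling. None of the 9 ratios of a member to VIL1 was without overlap between the groups, in either direction. Of tested genes, 5.21% were higher without overlap, and the share that was lower was not computed. MYO7B stood at 0.465, 0.256 and 0.142 of the FPKM of VIL1 in transports 1 to 3, against 0.298, 0.293 and 0.288 in controls 1 to 3. The controls were nearly equal and the transport libraries lay on both sides of them. USH1C stood at 0.0285, 0.058 and 0.0885 of CDHR5 after transport, against 0.0568, 0.0631 and 0.0553 in controls. Here transport 1 lay below the controls, transport 3 above them and transport 2 among them. Of the protocadherins, CDHR2 stood at 0.210, 0.351 and 0.351 of CDHR5 after transport, against 0.236, 0.198 and 0.155 in controls. The groups overlapped, with transport 1 below control 1.

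Set against a marker of epithelium, the counts differed with the marker, of which all but EPCAM were added after the data were seen. Relative to EPCAM, the epithelial adhesion molecule, 7 of 10 members were higher after transport without overlap, against 15.3% of tested genes, among them CDHR2 with ratios of 1.17, 1.20 and 1.79 after transport and 0.650, 0.365 and 0.272 in controls. EPCAM itself was at 39.5, 136 and 26.0 FPKM after transport, against 108, 136 and 112 FPKM in controls. Relative to KRT8, a keratin, 0 of 10 were higher without overlap (background 11%). Relative to LGALS4, galectin-4, ESPN alone was higher without overlap (background 4.01%). Relative to CDH17, the liver-intestine cadherin, 0 of 10 were higher without overlap (background 1.06%), and VIL1 was lower, at 4.89, 3.57 and 5.13 after transport, against 5.82, 5.62 and 5.76 in controls (background for lower 1.1%). Relative to CDH1, which encodes E-cadherin, 3 of 10 were higher without overlap, where 64.9% of tested genes were.

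The hydrolases anchored on the same membrane digest sugars and peptides. Not all of the listed ones could be tested. LCT, ALPI, GGT1, MEP1A, ASAH2 and FOLH1 were not found by symbol, and ALPL, NAALAD2 and CPO did not reach the filter. Log2 fold changes were above 0 for 14 of 14 tested brush border hydrolases, against 6 of 10 microvillus genes and 56.9% of tested genes. The median was 0.06 for the microvillus genes and 0.94 for the hydrolases. None passed the adjusted threshold of edgeR, and 2 of 14, XPNPEP2 and MGAM2, had an unadjusted p under 0.05, beside 5.13% of all tested genes. XPNPEP2, an aminopeptidase, had 1.23, 9.61 and 83.1 FPKM after transport, against 1.48, 0.668 and 1.77 FPKM in controls, so that transport 3 stood far above the rest and transport 1 lay among the controls. Without transport 2 the median of the hydrolases was 0.42, with 11 of 14 above 0. The values of these genes in these samples were known when the list was set beside the microvillus genes, so the count is not independent evidence of a direction. The ratio of ANPEP, aminopeptidase N, to VIL1 was 4.66, 4.71 and 3.89 after transport, against 1.66, 2.003 and 2.31 in controls, or 4.42 ± 0.461 and 1.99 ± 0.327 (SD, n = 3 each). DPP4, dipeptidyl peptidase 4, had ratios of 0.339, 0.373 and 0.318 after transport, against 0.220, 0.162 and 0.176 in controls. ANPEP and DPP4 were chosen after their values were seen. In all, 5 of 14 hydrolases were higher relative to VIL1 without overlap, against 5.21% of tested genes, and 4 of 14 relative to the geometric mean of the 10 microvillus genes, against 2.16%. ANPEP, DPP4 and MEP1B, a meprin subunit, were in both sets. The count of hydrolases higher without overlap varied with the denominator: it was 11 of 14 relative to EPCAM (background 15.3%), 4 relative to CDH17 (1.06%) and 2 relative to LGALS4 (4.01%). It was 2 of 14 relative to KRT8, where the background was 11%, and 5 of 14 relative to CDH1, where it was 64.9%. With 3 libraries against 3, an exact two-sided permutation test of 1 such ratio cannot go below p = 0.1.

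**Figure D4:**
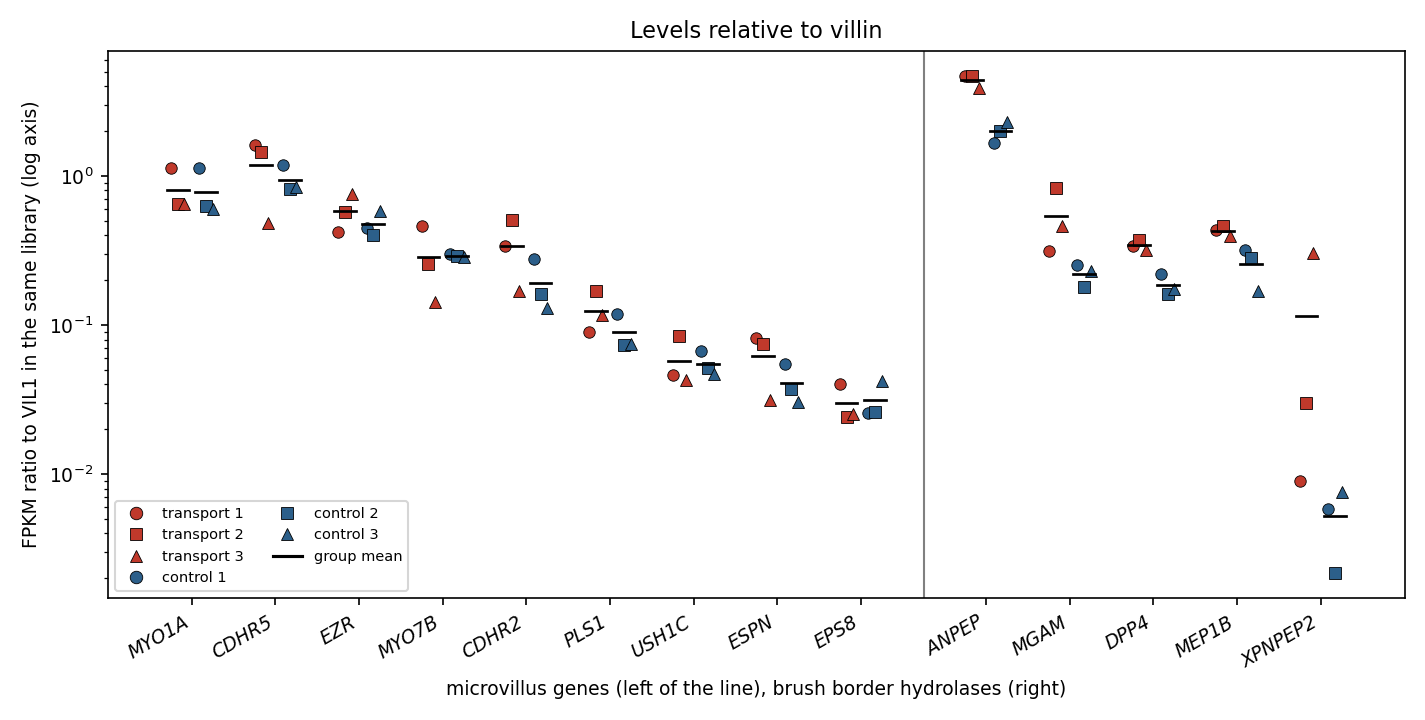
FPKM of each gene divided by that of VIL1 in the same library (log axis), for 9 microvillus genes on the left and the 5 hydrolases without overlap on the right; transport libraries are red and left, controls blue and right, and black bars are group means. The groups overlap for all 9 microvillus genes, and for ANPEP the transport ratios lie between 3.89 and 4.71, above the controls.

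A wider set was described by role: genes of the apical cytoskeleton and its membrane links, of apical membrane trafficking, and transcription factors of enterocyte identity. Of 101 such entries 93 were tested, and 0 passed the adjusted threshold of edgeR. An unadjusted p under 0.05 was reached by 6, beside 5.13% of all tested genes. Log2 fold changes were above 0 for 42 and below 0 for 51, with a median of -0.09. Of the 93, 4 were higher and 5 lower without overlap between the groups. Over all tested genes 6.93% were higher and 4.19% lower without overlap, so the cases named below are not unusual in number. Without transport 2 the median was -0.24, with 31 above 0.

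Among 21 tested genes of the actin core and its regulators, 9 were above 0 (median -0.06). TPM4, a tropomyosin that coats actin filaments, had 26.9, 28.6 and 35.8 FPKM after transport, against 41.7, 56.3 and 74.5 FPKM in controls, without overlap (log2 fold change -0.98, edgeR, unadjusted p = 0.0107, adjusted p = 0.890). LCP1, the plastin of leukocytes and itself in the leukocyte marker list, had 218 FPKM in transport 3 and 17.5 to 35.5 FPKM in the other libraries, where the leukocyte marker sum was also highest in transport 3. VILL, a villin-like gene, had 5.06, 4.76 and 1.298 FPKM after transport, against 3.83, 11.4 and 6.33 FPKM in controls.

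Of 12 membrane linkers and their kinases 7 were above 0 (median 0.09). RDX, which encodes radixin, a relative of ezrin, had 2.80, 1.78 and 2.91 FPKM after transport, against 1.60, 0.755 and 1.58 FPKM in controls, without overlap (edgeR, adjusted p = 0.890). STK10, a kinase that phosphorylates ezrin and its relatives and is abundant in lymphocytes, had 6.81, 9.64 and 21.5 FPKM after transport, against 5.06, 5.43 and 7.11 FPKM in controls. Its value in transport 1 was below that in control 3. STK26, a kinase that acts on ezrin in polarising human cells, had 8.77 FPKM in transport 3 and 0.745 to 1.63 FPKM elsewhere.

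Of the partners of the adhesion complex 3 were tested. ANKS4B, a scaffold that binds harmonin and the motor, had 20.6, 62.1 and 32.4 FPKM after transport, against 24.8, 32.4 and 29.8 FPKM in controls, with transport 2 the highest and transport 1 the lowest, as for USH1C. CALML4, the light chain of MYO7B, had 43.4, 40.5 and 19.5 FPKM after transport, against 46.1, 59.2 and 41.5 FPKM in controls, with transport 3 the lowest, as for MYO7B. MYO7A, the related motor of sensory cells, had 0.646 FPKM in transport 3 and 2.85 to 7.55 FPKM elsewhere. None of these 3 passed the test, with adjusted p-values of 0.891 to 0.925 in edgeR.

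Of 17 other entries for myosins, light chains and calmodulins, MYL6 having 2, 8 were above 0 (median -0.07). MYO6, a motor that moves towards the base of the microvillus, had 4.99, 16.5 and 8.43 FPKM after transport, against 5.66, 6.38 and 5.03 FPKM in controls. MYO1E was at 44.5 FPKM in transport 3 and 5.43 to 8.12 FPKM elsewhere.

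In the terminal web, the filament layer under the microvilli, 3 of 9 tested genes were above 0 (median -0.32). ACTN4, an alpha-actinin, had 22.6, 31.4 and 25.8 FPKM after transport, against 31.5, 33.4 and 32.1 FPKM in controls, without overlap, a difference of -0.34 on the log2 scale that did not pass (edgeR, adjusted p = 0.897). The keratin genes KRT18 and KRT20 were lowest in transport 3, at 3.89 and 196 FPKM, as was the sum of epithelial markers.

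Genes of apical membrane trafficking matter here because loss of MYO5B, STX3 or STXBP2 causes microvillus inclusion disease in humans. MYO5B, the motor of recycling endosomes and counted among the myosins, had 8.36, 24.3 and 9.71 FPKM after transport, against 12.1, 14.6 and 14.2 FPKM in controls. STX3, a syntaxin of apical fusion, had 10.4, 21.2 and 1.81 FPKM after transport, against 12.3, 10.7 and 10.3 FPKM in controls, with transport 3 far below the others. STXBP2, its binding partner, had 27.7, 45.4 and 37.6 FPKM after transport, against 27.2, 26.9 and 20.7 FPKM in controls, without overlap (log2 fold change 0.50, edgeR, adjusted p = 0.890). Of 16 tested trafficking genes 9 were above 0, with a median of 0.02, and STRADA and RAP2A, of the polarity kinase pathway, had log2 fold changes of 0.85 and 0.53 with overlap.

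Of 15 transcription factors of enterocyte identity 5 were above 0 (median -0.42). PRDM1, which represses genes of the mature gut before weaning in mice, had 2.15, 4.66 and 4.85 FPKM after transport, against 1.61, 2.18 and 1.42 FPKM in controls (edgeR, unadjusted p = 0.0314, adjusted p = 0.890). KLF4, a factor of differentiated epithelium, had 62.9 FPKM in transport 2 and 9.32 to 15.2 FPKM elsewhere, so its log2 fold change of 1.21 became -0.24 without that library.

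**Figure D5:**
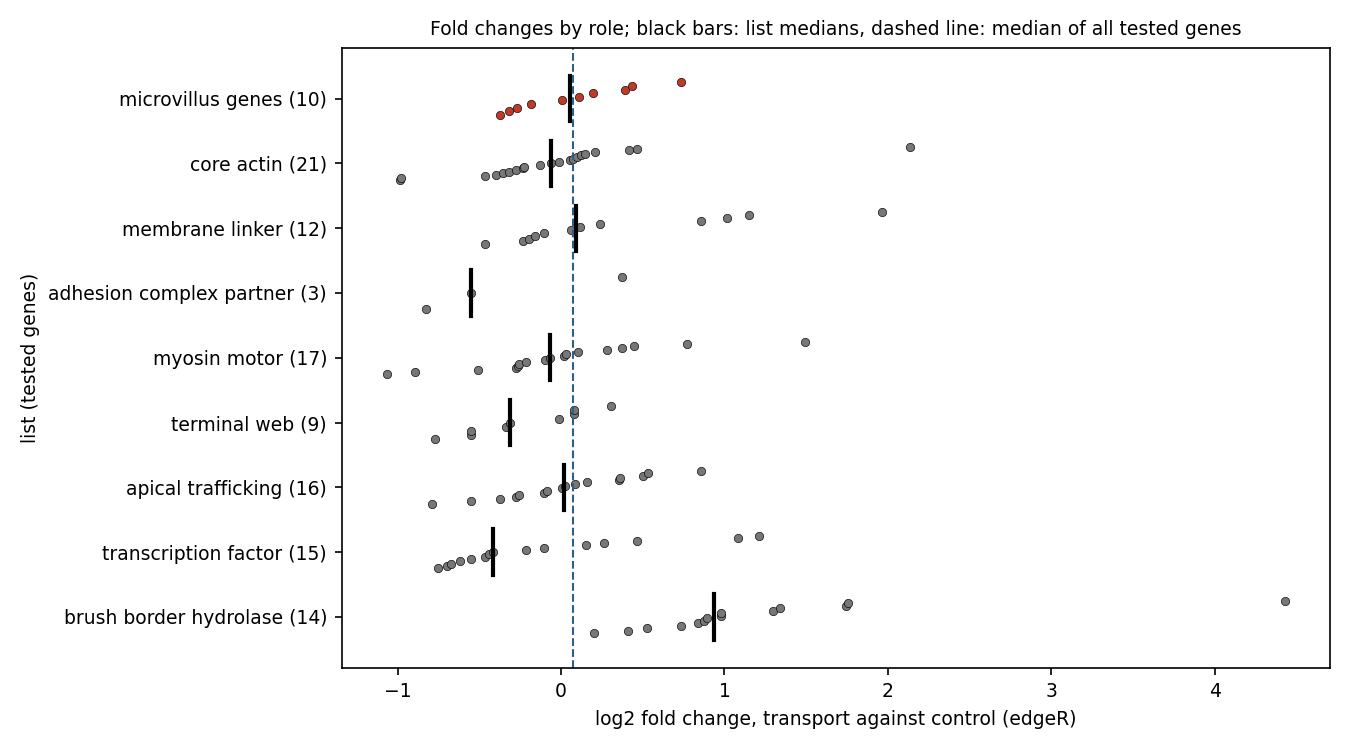
Log2 fold changes, transport against control, of the microvillus genes (red), of the wider lists by role and of the brush border hydrolases (grey); black bars are list medians, the dashed line is the median of all tested genes at 0.07, and numbers in brackets are genes tested. The microvillus genes lie between -0.38 and 0.73, and all 14 hydrolases lie above 0.

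The deposited annotation gives the members a shared place. Of the 8 members whose gene ontology (GO) terms were used here, 7 carry the term for brush border, 6 a term that names the microvillus and 6 one for actin binding. Another 59 genes of the table carry such a brush border or microvillus term, and of the 45 tested 0 passed the adjusted threshold of edgeR, 2 (MYO1G and STK26, chosen after their values were seen) had an unadjusted p under 0.05, a share near the 5.13% of all tested genes, and the median log2 fold change was 0.07, as over all tested genes. MYO1G, a myosin of blood cells, had 5.63, 5.26 and 32.2 FPKM after transport, against 3.35, 3.16 and 3.22 FPKM in controls, the highest again in transport 3.

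Reads of a few members could be shared with a neighbour. The interval of VIL1 overlaps CFAP65 on the other strand, with at most 48 counts in any library. That of CDHR2 overlaps 3 genes with at most 298 counts each, and that of PLS1 overlaps TRPC1 and a small RNA with at most 316. No source used here says whether counting used strand. These counts were small beside those of CDHR2 (12733 to 68218) and PLS1 (5623 to 25574).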

How the data were processed

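The labels describe total RNA extracted with Trizol and standard Illumina libraries. Counts per gene are whole numbers deposited by the authors without normalization, per the file headers. FPKM values were computed by the authors, per the file headers, and a count of 0 is written as 0.0001. Aligner, counter, strand setting and build: not given in the sources used here. Columns of the transport group carry another prefix than the labels and were matched by group and number. Of 6907 bare identifiers, 951 took a symbol from a gene name reference.

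Counts of the 12012 genes whose FPKM reached 1 in 3 or more of 6 libraries were tested with edgeR's quasi-likelihood test (edgeR 4.0.16, R 4.3.3), scaled by TMM, with no factor besides group and Benjamini-Hochberg adjustment over all of them. The common biological coefficient of variation was 0.473. Standard errors and 95% intervals come from the quasi-likelihood F statistic. DESeq2 1.42.0 and limma 3.58.1, limma on log2(FPKM + 1), log2(FPKM + 0.1) or quantile normalised log2 CPM, were alternatives, with other filters, a replicate block and libraries left out. The code was tested on simulated counts. Ratios are of FPKM within a library.

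The members and lists were chosen with earlier results of these data known; ratios other than to VIL1 and EPCAM, the GO list and the within-group spread were added after the data were seen. The text names all members, up to 3 genes of smallest p per wider list, 4 trafficking and scaffold genes, and the 5 genes most like VIL1. A few genes that this choice would name are not reported here.

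Deviations from group means correlated between libraries of equal number with r = 0.218, 0.120 and 0.212 across genes, and from -0.289 to 0.121 otherwise. The lowest value for equal numbers thus did not exceed the highest for unequal numbers, and a pairing was not established. Any pairing would rest on the data alone, since no label gives the numbers a meaning.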

Additional observations from a re-analysis of the deposited data

How the results depend on the processing

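The call that 0 of the 10 microvillus genes and 0 of the wider genes passed held under all 15 alternatives, with adjusted p-values of members from 0.547 upwards. Of 150 member fold changes under alternatives, 22 had the other sign. The median of the 10 was -0.16 with the replicate block, -0.01 after quantile normalisation and between -0.48 (without transport 2) and 0.31 with 1 library left out; the block changed no call. USH1C was -0.010 with DESeq2 and with its size factors in edgeR, -0.35 after quantile normalisation, -0.18 and -0.16 in limma on FPKM + 0.1 and + 1, and -0.24 with the block. CDHR5 was -0.020, -0.038, -0.037 and -0.11 in the last 4 of these, MYO5B -0.28, -0.11, -0.10 and -0.19, and STX3 -0.73, -0.57, -0.44 and -0.61, with -0.0050 and -0.0051 under DESeq2 and its size factors. With 1 library, or transport 3 and control 2, left out, the ranges were VIL1 -0.52 to 0.10, EZR -0.070 to 0.58, ESPN -0.25 to 0.76, MYO1A -0.51 to 0.064, MYO7B -0.71 to 0.059, CDHR2 -0.25 to 1.08, CDHR5 -0.61 to 0.50, USH1C -0.85 to 0.37, PLS1 -0.26 to 0.83, ANKS4B -0.27 to 0.68, KLF4 -0.24 to 1.64, MYO5B -0.72 to 0.36 and STX3 -0.94 to 0.52. Over all genes edgeR called 2 higher and 0 lower; DESeq2 called 27 and 23, limma on either FPKM scale 1 and 0, a mean FPKM of at least 5 left 1 higher, leaving out transport 3 and control 2 also 1, and leaving out 1 library gave 0 to 2 higher and 0 to 1 lower. The median of all tested genes moved from 0.07 to -0.02 after quantile normalisation. The cause of these shifts was not tested. With 3 libraries a group, changes of the size of the members' intervals could not be detected.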
